A study of Drosophila melanogaster with 24 samples.

Results

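The peptidoglycan recognition protein (PGRP) genes of Drosophila melanogaster encode the proteins with which the fly detects or digests bacterial cell wall. The 10 genes described here are PGRP-SC1a, PGRP-SC1b, PGRP-SC2, PGRP-SB1, PGRP-SB2, PGRP-LB, PGRP-SA, PGRP-SD, PGRP-LC and PGRP-LF. They were chosen by name from the 15682 genes of the deposited count files. The other 3 PGRP genes, PGRP-LA, PGRP-LD and PGRP-LE, are given beside them.

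Peptidoglycan with diaminopimelic acid, typical of Gram-negative bacteria, is bound by the receptor PGRP-LC and sets off the Imd pathway. Lysine-type peptidoglycan, typical of many Gram-positive bacteria, is bound in the haemolymph by PGRP-SA and leads to Toll signalling. Both pathways switch on antimicrobial peptide genes, and amidases such as PGRP-LB and the PGRP-SC proteins cut peptidoglycan and so limit the Imd response, in the gut and elsewhere.

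RNA was sequenced from whole thoraces, which are mostly skeletal muscle, and from heads of male flies at 10 days of age, in 8 groups of 3 libraries labelled as biological replicates. All groups carried the Mhc driver, which acts in muscle, so a transgene acted in muscle while the RNA came from every cell of the thorax or head. The 6 thorax groups were Mhc>GFPRNAi and Mhc>whiteRNAi, the control lines, and Mhc>ProsB1RNAi, Mhc>ProsB5RNAi, Mhc>Ter94RNAi and Mhc>CG6272RNAi. ProsB1 and ProsB5 are catalytic subunits of the proteasome core, Ter94 is the ATPase p97, and CG6272 is a bZIP protein. The head groups were Mhc>+ (isogenic control) and Mhc>Amyrel, in which muscle overexpressed the amylase-related gene Amyrel. The CG6272 RNAi samples have titles of another form, so that a separate set of libraries and the knockdown cannot be told apart. The labels do not say how many flies went into a library or whether the RNAi lines share a genetic background.

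Between 28.9 and 79.2 M reads per thorax library fell in genes, and between 47.5 and 75.7 M per head library. Levels are given as CPM, counts per M reads in genes after scaling of the libraries, and changes as log2 fold changes ± SE from edgeR's quasi-likelihood test, whose p-values were adjusted (Benjamini-Hochberg) across every gene of a fit. A gene is called, and is said to rise or fall, at an adjusted p under 0.05. There were 3 libraries per group and 6 for the pooled GFP and white RNAi controls, which all comparisons of knockdowns with controls share. The 5 manipulated genes moved as labelled in their own comparisons, with log2 -0.93 for Prosbeta1, -1.05 for Prosbeta5, -0.61 for TER94, -0.94 for CG6272 and 6.19 for Amyrel in heads. The flight muscle gene Mhc stood at 3774 to 6123 CPM in thoraces, and the photoreceptor opsin ninaE at 29596 to 32257 CPM in heads. Some control thoraces also held photoreceptor RNA, since ninaE reached 190 CPM in replicate 2 and 359 CPM in replicate 3 of GFP RNAi, and 404 CPM in replicate 1 of white RNAi. Male accessory gland RNA was found too, with Acp36DE at 6.90 to 130 CPM in GFP RNAi replicate 1, white RNAi replicates 1 and 2 and ProsB5 RNAi replicate 1. The comparisons were repeated without each of these sets of libraries. Leaving out the ninaE set left GFP RNAi with replicate 1 alone, and leaving out the Acp36DE set left white RNAi with replicate 3 alone. In RNA from whole body parts, fewer cells of a type and less RNA per cell cannot be told apart.

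**Figure D1:**
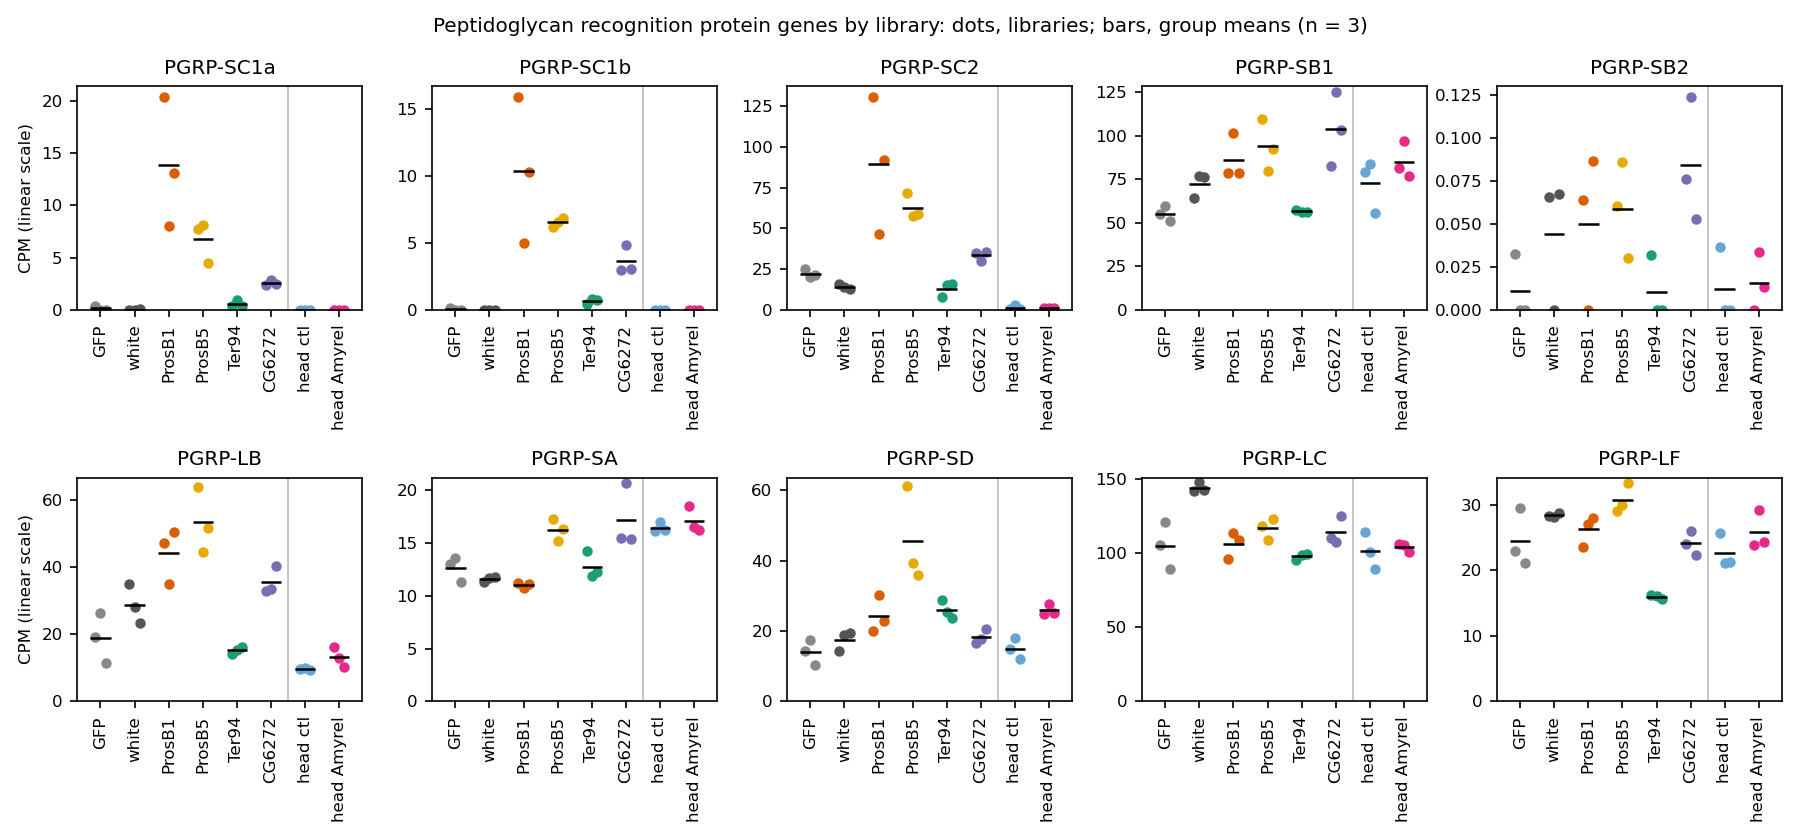
CPM of the 10 genes (linear axes that differ between panels) in each of the 24 libraries, by group, where dots are libraries, black bars are group means of 3 and a grey line divides thoraces from heads. PGRP-SC1a and PGRP-SC1b are near 0 in both control lines and in heads and reach 20.4 and 15.9 CPM under ProsB1 RNAi, whereas PGRP-LC stays between 89.1 and 148 CPM everywhere.

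Of the 10 genes, 9 could be tested in thoraces. The background of each comparison is the share of all its genes that were called, or whose libraries did not overlap between the groups. Under ProsB1 RNAi 6 of the 9 rose and none fell, where 21.3% of all genes were called, 11.6% as higher and 9.73% as lower, and 6 of the 9 did not overlap, against 19.8% of all genes. The 6 without overlap include PGRP-SA, which lay below all controls and was not called. They leave out PGRP-LB, which rose but overlapped. Under ProsB5 RNAi 7 rose and none fell, where 31% of all genes were called, 17.3% as higher and 13.8% as lower, and 7 did not overlap, against 24.7% of all genes. Under Ter94 RNAi 3 rose and 3 fell, where 58.1% of all genes were called, 29.7% as higher and 28.4% as lower, so that the share of 6 in 9 is near the background, and 3 did not overlap, against 46.4% of all genes. Under CG6272 RNAi 5 rose and none fell, where 22.8% of all genes were called, 13.3% as higher and 9.53% as lower, and 5 did not overlap, against 27.3% of all genes. PGRP-SC1a and PGRP-SC1b passed the filter on low counts only through the groups in which they are high, so these counts do not stand for the family as a whole. The median log2 change of the 9 genes was 0.63, 1.19, -0.17 and 0.60 under ProsB1, ProsB5, Ter94 and CG6272 RNAi. That of all genes tested lay between -0.00205 and 0.0206. The medians of the 9 include PGRP-SC1a and PGRP-SC1b, so they do not stand for the family either.

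PGRP-SC1a and PGRP-SC1b, secreted amidases encoded by a pair of near-identical genes on chromosome arm 2R, had almost no reads in control thoraces. PGRP-SC1a had 13, 0 and 1 reads in the GFP RNAi libraries and 0, 0 and 3 in the white RNAi libraries. Under ProsB1 RNAi it had 639, 274 and 454 reads and under ProsB5 RNAi 257, 284 and 150. It had 160, 92 and 187 reads under CG6272 RNAi and 12, 31 and 12 under Ter94 RNAi. Depth differed between libraries, and the mean levels were 13.8, 6.78, 2.58 and 0.559 CPM under ProsB1, ProsB5, CG6272 and Ter94 RNAi. The ProsB1, ProsB5 and CG6272 RNAi libraries thus lay apart from all 6 controls, while Ter94 RNAi was low and overlapped GFP RNAi replicate 1, at 0.382 to 0.910 against 0.420 CPM.

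PGRP-SC1b followed the same order. It had 5, 0 and 0 reads under GFP RNAi and none in any white RNAi library, which allows a level of up to 0.0334 CPM (3 reads over the group). Under ProsB1 RNAi it had 498, 170 and 357 reads, under ProsB5 RNAi 204, 231 and 230, under CG6272 RNAi 196, 157 and 233 and under Ter94 RNAi 14, 29 and 23. With depth allowed for, the mean levels were 10.4, 6.54, 3.63 and 0.678 CPM in the same order. All 12 knockdown libraries lay above all 6 controls.

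Per read in genes after scaling of the libraries, PGRP-SC1a was 143 times as high under ProsB1 RNAi as in the pooled controls (95% interval from counting error, 89.1 to 247), 71.3 times under ProsB5 RNAi (44.2 to 123) and 26.4 times under CG6272 RNAi (16.3 to 45.8). Under Ter94 RNAi it was 5.97 times as high (3.41 to 10.97). PGRP-SC1b was 365 times as high under ProsB1 RNAi (156 to 1127), 233 times under ProsB5 RNAi (99.5 to 721), 120 times under CG6272 RNAi (51.1 to 371) and 24.4 times under Ter94 RNAi (9.93 to 77.5). Against white RNAi alone, with no reads of PGRP-SC1b, it was at least 306-fold, 196-fold, 101-fold and 20.4-fold higher in the same order, taking 3 reads over the group as the floor. The pooled ratios rest largely on GFP RNAi replicate 1, which held 13 of the 17 control reads of PGRP-SC1a and all 5 of PGRP-SC1b. Without it PGRP-SC1a was 503 (196 to 1849), 251 (97.4 to 922), 92.8 (36.0 to 342) and 21.0 times as high (7.74 to 79.7) under ProsB1, ProsB5, CG6272 and Ter94 RNAi. PGRP-SC1b was then at least 503-fold, 321-fold, 165-fold and 33.5-fold higher. Against GFP RNAi alone the PGRP-SC1a ratios were 86.4, 43.0, 15.9 and 3.602 in the same order. Against white RNAi alone, with 3 reads, they were 408 (139 to 1983), 203 (69.3 to 989), 75.3 (25.6 to 367) and 17.0 (5.53 to 85.1). The reads of all libraries of a group were pooled for these ratios, so the intervals cover counting error only. They leave out the spread between libraries, and the reads carry no molecular identifiers.

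In edgeR's test PGRP-SC1a was called higher under ProsB1 RNAi (adjusted p = 7.23e-06), ProsB5 RNAi (1.95e-05), CG6272 RNAi (0.00398) and Ter94 RNAi (0.00983), and PGRP-SC1b in the same comparisons (7.23e-06, 1.2e-05, 0.00145 and 0.000322). Both genes entered the fits only because of the libraries in which they are high, so these p-values describe the counts above and add no support to them. The PGRP-SC1a call under Ter94 RNAi was lost in 3 of 20 alternatives, with adjusted p = 0.0982 against GFP RNAi alone, 0.0658 without Ter94 RNAi replicate 2 and 0.0675 without the control libraries high in ninaE. Against the mean of the proteasome knockdowns, Ter94 RNAi had less PGRP-SC1a (log2 -4.10 ± 0.61, adjusted p = 9.39e-05) and less PGRP-SC1b (-3.60 ± 0.50, adjusted p = 0.000123). Reads that match both genes could be lost from these counts, since 6.3 to 13.2% of reads per thorax library were set aside as not unique. Summed over both genes, the level was 24.2 ± 11.7 CPM under ProsB1 RNAi, 13.3 ± 1.75 under ProsB5 RNAi, 6.21 ± 1.30 under CG6272 RNAi and 1.24 ± 0.476 under Ter94 RNAi (mean ± SD, n = 3).

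PGRP-SC2, the third amidase gene of the 2R cluster, was readily detected in control thoraces. It stood at 24.98, 20.3 and 21.4 CPM under GFP RNAi and at 16.0, 14.1 and 12.7 CPM under white RNAi. It stood at 131, 46.5 and 91.9 CPM under ProsB1 RNAi, at 71.6, 57.9 and 58.8 CPM under ProsB5 RNAi and at 34.9, 30.0 and 35.6 CPM under CG6272 RNAi. All 9 of these libraries lay above all 6 controls. Under Ter94 RNAi it stood at 7.95, 15.1 and 15.8 CPM, of which replicate 1 lay below every control library.

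PGRP-SC2 rose under ProsB1 RNAi (log2 2.33 ± 0.26, adjusted p = 4.49e-05), ProsB5 RNAi (1.82 ± 0.26, adjusted p = 0.000228) and CG6272 RNAi (0.90 ± 0.10, adjusted p = 0.000774). Under Ter94 RNAi the change of -0.47 ± 0.28 was not called (adjusted p = 0.174, 95% interval -1.08 to 0.15). The difference between Ter94 RNAi and the proteasome knockdowns was called (-2.54 ± 0.31, adjusted p = 1.72e-05), and that between ProsB5 and ProsB1 RNAi was not (-0.51 ± 0.31, adjusted p = 0.407).

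Gut markers moved with the PGRP-SC genes in part. The protease gene Jon65Ai had no reads in 5 of the 6 control libraries and 0.355 CPM in the remaining one, replicate 1 of GFP RNAi. Its level under ProsB1 RNAi was 62.8, 15.4 and 33.8 CPM. It stood at 29.9, 16.7 and 16.8 CPM under ProsB5 RNAi, at 27.1, 30.2 and 17.6 CPM under CG6272 RNAi and at 1.25, 3.23 and 3.28 CPM under Ter94 RNAi. Jon65Aiii, another protease gene of the gut list, went otherwise, with means of 767 and 766 CPM under GFP and white RNAi. Its means were 656, 700, 660 and 138 CPM under ProsB1, ProsB5, CG6272 and Ter94 RNAi (n = 3 each). Among the ProsB1 RNAi libraries replicate 1 was highest and replicate 2 lowest in Jon65Ai, PGRP-SC1a, PGRP-SC1b and PGRP-SC2 alike. The gut list as a whole did not share this order, with a summed level of 7696, 5871 and 8807 CPM and mex1 at 37.1, 29.0 and 40.1 CPM, both highest in replicate 3.

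Of the 18 gut markers listed, 10 rose and 2 fell under ProsB1 RNAi, and likewise 10 and 2 under ProsB5 RNAi. Under CG6272 RNAi 9 rose and 3 fell, and under Ter94 RNAi 6 rose and 11 fell. In the same order 21.3, 31, 22.8 and 58.1% of all genes were called. The median log2 change of the 18 markers was 1.66, 1.70, 1.04 and -2.36. The summed level of the markers follows their most abundant genes. It was 6733 to 8581 CPM in the control libraries, in which PGRP-SC1a and PGRP-SC1b together did not pass 0.581 CPM. It was 5871 to 8807 CPM under ProsB1 RNAi, 5457 to 10810 under ProsB5 RNAi, 3784 to 8594 under CG6272 RNAi and 189 to 1765 under Ter94 RNAi. The gene mex1, a marker of absorptive gut cells, stood at 9.50 to 20.9 CPM in controls, 29.0 to 53.8 CPM in the proteasome knockdowns, 15.9 to 33.3 CPM under CG6272 RNAi and 4.29 to 5.17 CPM under Ter94 RNAi. Jon65Ai was at 0 in all white RNAi libraries and no other gut marker was at 0 in a whole thorax group. The part of gut RNA in the PGRP-SC differences was not tested.

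**Figure D2:**
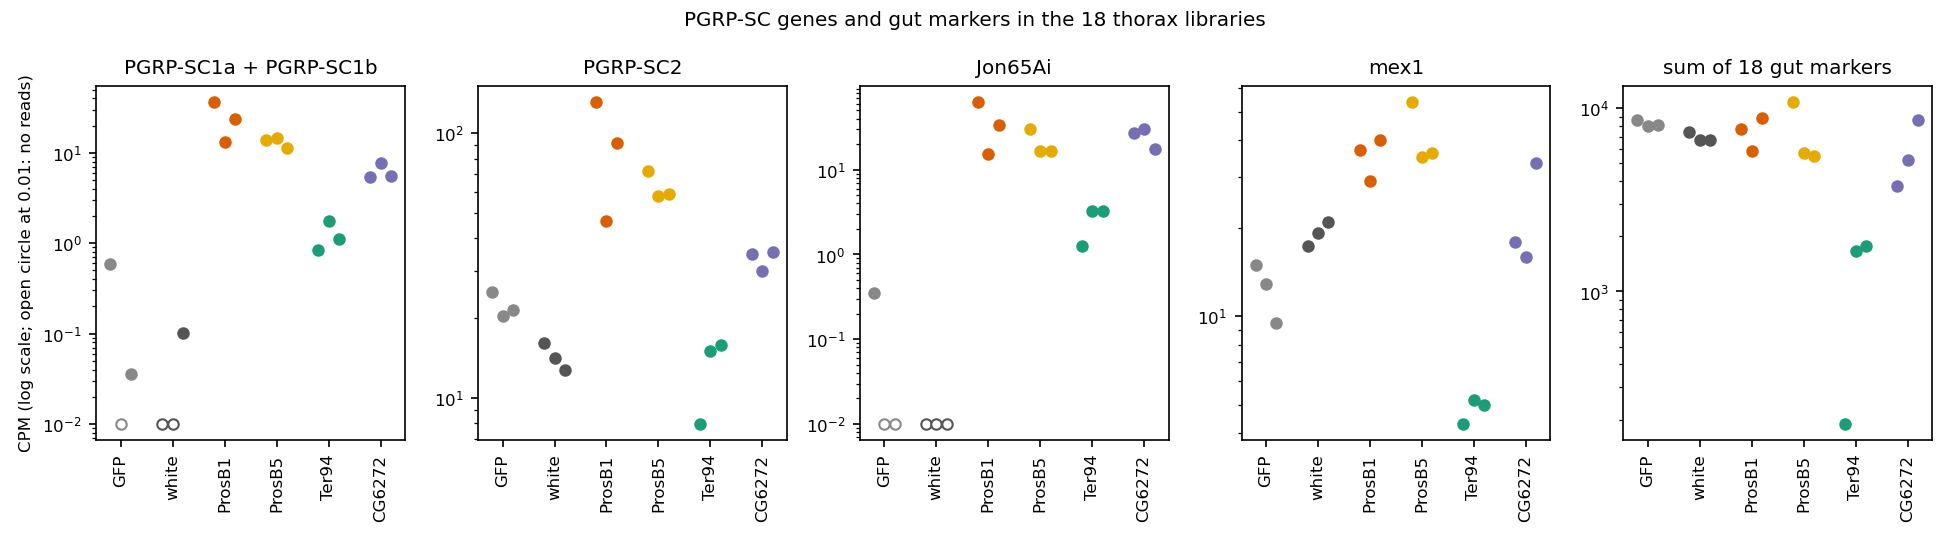
CPM on log axes of the summed PGRP-SC1 genes, PGRP-SC2, the gut genes Jon65Ai and mex1 and the sum of 18 gut markers in the 18 thorax libraries, each dot a library and open circles libraries with no reads. The summed markers, which follow their most abundant genes, lie at 6733 to 8581 CPM in the controls, within the range of the proteasome knockdowns. The PGRP-SC1 genes and Jon65Ai are near 0 in the controls.

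PGRP-LB encodes an amidase that has secreted and intracellular forms and degrades the peptidoglycan that activates the Imd pathway. It stood at 19.2, 26.2 and 11.4 CPM under GFP RNAi and at 34.8, 28.1 and 23.3 CPM under white RNAi. It stood at 47.2, 34.8 and 50.3 CPM under ProsB1 RNAi, at 63.8, 44.5 and 51.6 CPM under ProsB5 RNAi and at 32.9, 33.3 and 40.4 CPM under CG6272 RNAi. Under Ter94 RNAi it stood at 14.1, 15.35 and 16.2 CPM. All ProsB5 RNAi libraries lay above all controls, and 1 ProsB1 RNAi library was level with white RNAi replicate 1.

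PGRP-LB rose under ProsB1 RNAi (log2 0.91 ± 0.21, adjusted p = 0.00816, but 0.116 against white RNAi alone) and under ProsB5 RNAi (1.19 ± 0.21, adjusted p = 0.00101). Its change under CG6272 RNAi was 0.60 ± 0.22 (adjusted p = 0.0818), and it was called against GFP RNAi alone (0.0487), without GFP RNAi replicate 2 (0.0409) and with all 18 thorax libraries in 1 fit (0.0308). Under Ter94 RNAi it fell (-0.62 ± 0.23, adjusted p = 0.0314), and Ter94 RNAi lay below the proteasome knockdowns with no overlap (-1.68 ± 0.24, adjusted p = 6.11e-05). The fall against controls was not called against GFP RNAi alone (adjusted p = 0.318), nor without GFP RNAi replicate 1 (0.0507) or 2 (0.0691), white RNAi replicate 1 (0.0637) or 2 (0.0503), or Ter94 RNAi replicate 1 (0.108), 2 (0.0818) or 3 (0.066), nor without the libraries high in Acp36DE (0.177).

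PGRP-SB1 encodes a secreted amidase that can kill some bacteria. It stood at 55.1, 59.9 and 50.9 CPM under GFP RNAi and at 64.4, 77.0 and 76.1 CPM under white RNAi. It stood at 78.5, 102 and 78.7 CPM under ProsB1 RNAi, at 109, 79.8 and 92.4 CPM under ProsB5 RNAi and at 82.6, 125 and 104 CPM under CG6272 RNAi. Under Ter94 RNAi it stood at 57.1, 56.0 and 56.4 CPM, inside the range of the controls, above which the other knockdowns lay.

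PGRP-SB1 rose under ProsB1 RNAi (log2 0.44 ± 0.11, adjusted p = 0.0099), ProsB5 RNAi (0.57 ± 0.11, adjusted p = 0.00141) and CG6272 RNAi (0.70 ± 0.13, adjusted p = 0.00784). Under Ter94 RNAi the change was -0.17 ± 0.11 (adjusted p = 0.196), and Ter94 RNAi lay below the proteasome knockdowns (-0.67 ± 0.11, adjusted p = 0.000206). Against white RNAi alone PGRP-SB1 was called lower under Ter94 RNAi (log2 -0.37, adjusted p = 0.0243), and against GFP RNAi alone the change was 0.03. The rises under ProsB1 and CG6272 RNAi were not called against white RNAi alone (adjusted p = 0.197 and 0.0631), nor was the one under ProsB1 RNAi without its replicate 2 (0.0717). Leaving out the ninaE-high controls ended the calls under ProsB1 and CG6272 RNAi (0.064 and 0.122). Leaving out the libraries that held Acp36DE ended those under ProsB5 and CG6272 RNAi (0.0613 and 0.166).

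PGRP-SB2, the neighbour of PGRP-SB1 on the other strand of chromosome arm 3L, encodes a predicted amidase and was close to silent. It had 0 to 5 reads in each of the 24 libraries, with 13 reads in all under CG6272 RNAi and 1 in all under Ter94 RNAi, and it was not tested.

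PGRP-SD is a secreted recognition protein that has been linked to both the Toll and the Imd pathway. It stood at 14.4, 17.6 and 10.3 CPM under GFP RNAi and at 14.2, 18.8 and 19.4 CPM under white RNAi. It stood at 20.03, 30.1 and 23.0 CPM under ProsB1 RNAi, at 61.1, 39.4 and 36.0 CPM under ProsB5 RNAi, at 28.7, 25.5 and 23.8 CPM under Ter94 RNAi and at 16.5, 17.8 and 20.7 CPM under CG6272 RNAi. The ProsB5 RNAi libraries were highest, the ProsB1 and Ter94 RNAi libraries also lay above all controls, and CG6272 RNAi overlapped them.

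PGRP-SD rose under ProsB5 RNAi (log2 1.53 ± 0.19, adjusted p = 9.41e-05), Ter94 RNAi (0.72 ± 0.20, adjusted p = 0.00719) and ProsB1 RNAi (0.63 ± 0.20, adjusted p = 0.039), and its change under CG6272 RNAi was 0.21 ± 0.17 (adjusted p = 0.35). Against white RNAi alone the change under Ter94 RNAi was not called (0.0556). The ProsB1 RNAi call was lost in 11 of 20 alternatives. These included leaving out GFP RNAi replicate 1 (0.0553) or 3 (0.067), white RNAi replicate 1 (0.0776), 2 (0.0552) or 3 (0.051) and ProsB1 RNAi replicate 2 (0.2) or 3 (0.0774). Both proteasome knockdowns were also compared directly, where 5.97% of all genes were called, 3.41% as higher and 2.56% as lower in ProsB5 RNAi. PGRP-SD and PGRP-SA, 2 of the 9 genes tested, were higher in ProsB5 RNAi and none was lower. These and PGRP-LF, 3 of the 9, did not overlap, against 23.5% of all genes. For PGRP-SD the difference was 0.90 ± 0.23 (adjusted p = 0.0378). It was not called without ProsB1 RNAi replicate 1 (0.135) or 3 (0.133), ProsB5 RNAi replicate 1 (0.133) or 2 (0.0541), or the libraries high in Acp36DE (0.189).

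PGRP-SA, the recognition protein upstream of Toll, had its widest spread within a thorax group under CG6272 RNAi. It stood at 12.97, 13.6 and 11.3 CPM under GFP RNAi, at 11.3, 11.7 and 11.8 CPM under white RNAi and at 11.2, 10.8 and 11.1 CPM under ProsB1 RNAi. It stood at 17.2, 15.2 and 16.3 CPM under ProsB5 RNAi, at 14.2, 11.9 and 12.2 CPM under Ter94 RNAi and at 15.5, 20.7 and 15.4 CPM under CG6272 RNAi. ProsB5 and CG6272 RNAi lay above every control library, and ProsB1 RNAi lay below every one.

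PGRP-SA rose under ProsB5 RNAi (log2 0.43 ± 0.07, adjusted p = 0.000592) and CG6272 RNAi (0.50 ± 0.11, adjusted p = 0.0178), while the change under ProsB1 RNAi was -0.14 ± 0.07 (adjusted p = 0.199) and under Ter94 RNAi 0.07 ± 0.07 (0.399). The difference between ProsB5 and ProsB1 RNAi was 0.56 ± 0.08 (adjusted p = 0.00183). The CG6272 RNAi call was lost against GFP RNAi alone (0.0536), without the ninaE-high controls (0.177) and without the libraries that held Acp36DE (0.229).

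Haemocyte markers moved with PGRP-SD and PGRP-SA under ProsB5 RNAi, where all 8 rose, with a summed level of 811 to 843 CPM against 544 to 650 CPM in the controls. Under ProsB1 RNAi 3 of the 8 rose and none fell (663 to 704 CPM), under Ter94 RNAi 2 rose and 5 fell (451 to 504 CPM) and under CG6272 RNAi 1 rose and 3 fell (481 to 540 CPM). Of 7 fat body markers tested, 2, 4, 1 and 3 rose and 0, 0, 2 and 1 fell under ProsB1, ProsB5, Ter94 and CG6272 RNAi, with summed levels of 7260 to 9024 CPM in the controls, 9531 to 10323 under ProsB1 RNAi, 11433 to 14933 under ProsB5 RNAi, 7467 to 8372 under Ter94 RNAi and 7802 to 10777 under CG6272 RNAi. These counts stand against 21.3, 31, 58.1 and 22.8% of all genes called under ProsB1, ProsB5, Ter94 and CG6272 RNAi. Between the control lines, 4 of the 8 haemocyte and 3 of the 7 fat body markers were already higher in white than in GFP RNAi. No marker of either list was at 0 in a whole thorax group. The part of these cell types in the PGRP differences was not tested.

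PGRP-LC, the membrane receptor of the Imd pathway, had the highest mean of the 10 genes in all 6 thorax groups on the CPM scale, which does not allow for gene length. It stood at 105, 121 and 89.1 CPM under GFP RNAi and at 142, 148 and 143 CPM under white RNAi, and the control lines did not overlap. It stood at 96.2, 114 and 109 CPM under ProsB1 RNAi, at 118, 109 and 123 CPM under ProsB5 RNAi, at 95.5, 98.9 and 99.3 CPM under Ter94 RNAi and at 110, 108 and 125 CPM under CG6272 RNAi. All 12 knockdown libraries lay below white RNAi, and none of the 4 groups lay wholly outside the range of GFP RNAi.

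PGRP-LC fell under Ter94 RNAi (log2 -0.34 ± 0.08, adjusted p = 0.00375), but the change was -0.11 against GFP RNAi alone (adjusted p = 0.368). Its changes under ProsB1, ProsB5 and CG6272 RNAi were -0.21 ± 0.08, -0.08 ± 0.08 and -0.12 ± 0.10 (adjusted p = 0.0835, 0.542 and 0.385). Against GFP RNAi alone these became 0.02, 0.15 and 0.11, so their sign depended on the control line. Without GFP RNAi replicate 3 PGRP-LC was called lower under ProsB1 RNAi (-0.27, adjusted p = 0.00952), as it was against white RNAi alone (-0.44, adjusted p = 0.00607) and in DESeq2 (adjusted p = 0.0434). Under ProsB5 RNAi it was called lower against white RNAi alone (-0.31, adjusted p = 0.0326). White against GFP RNAi called PGRP-LC and no other of the 9 genes (0.46 ± 0.09, adjusted p = 0.0071), where 12.9% of all genes were called, 6.79% as higher and 6.09% as lower in white RNAi. PGRP-LC, PGRP-SC2 and PGRP-SB1, 3 of the 9, did not overlap between the control lines, against 33.2% of all genes. Without GFP RNAi replicate 2, PGRP-LB (adjusted p = 0.0389) and PGRP-LF (0.0114) were called higher in white RNAi as well, and without white RNAi replicate 1 PGRP-SB1 was (0.0468). Without the libraries high in Acp36DE, which left white RNAi with replicate 3 alone, the PGRP-LC difference was 0.45.

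PGRP-LF, a membrane protein that binds PGRP-LC without binding peptidoglycan and holds back Imd signalling, lies next to PGRP-LC on chromosome arm 3L. It stood at 22.9, 29.6 and 21.1 CPM under GFP RNAi and at 28.3, 28.2 and 28.7 CPM under white RNAi. Under Ter94 RNAi it stood at 16.2, 16.1 and 15.7 CPM, below every other thorax library. The other knockdown libraries lay between 22.3 and 33.3 CPM and overlapped the controls.

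PGRP-LF fell under Ter94 RNAi (log2 -0.73 ± 0.09, adjusted p = 2.92e-05), and the change lay between -0.84 and -0.62 in all 20 alternatives. Ter94 RNAi also lay below the proteasome knockdowns (-0.83 ± 0.09, adjusted p = 1.03e-05). Its changes under ProsB1, ProsB5 and CG6272 RNAi were -0.01 ± 0.09, 0.22 ± 0.09 and -0.14 ± 0.11 (adjusted p = 0.94, 0.0817 and 0.346). The change under ProsB5 RNAi was called without GFP RNAi replicate 2 (0.28, adjusted p = 0.0045), against GFP RNAi alone (0.33, adjusted p = 0.0306) and without the ninaE-high controls (0.27, adjusted p = 0.0295).

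In the direct comparison of Ter94 RNAi with the mean of the proteasome knockdowns, 6 of the 9 genes were lower and none was higher, where 57.1% of all genes were called, 27.4% as higher and 29.6% as lower. The same number, 6, did not overlap, against 49.3% of all genes. Those called were PGRP-SC1a, PGRP-SC1b, PGRP-SC2, PGRP-SB1, PGRP-LB and PGRP-LF, while PGRP-SD (log2 -0.36 ± 0.20, adjusted p = 0.147), PGRP-SA (-0.07 ± 0.07, adjusted p = 0.409) and PGRP-LC (-0.19 ± 0.08, adjusted p = 0.0637) were not called. PGRP-LC was called lower in DESeq2 (-0.20, adjusted p = 0.0405) and without the ninaE-high controls, which share the fit (-0.19, adjusted p = 0.0207). PGRP-SC1a and PGRP-SC1b entered this fit only through the proteasome knockdowns, in which they are high, so their part of the count is a description. The other 4 genes called pass the filter in every group of the fit. Of the 18 gut markers, all 18 were lower in the same comparison.

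**Figure D3:**
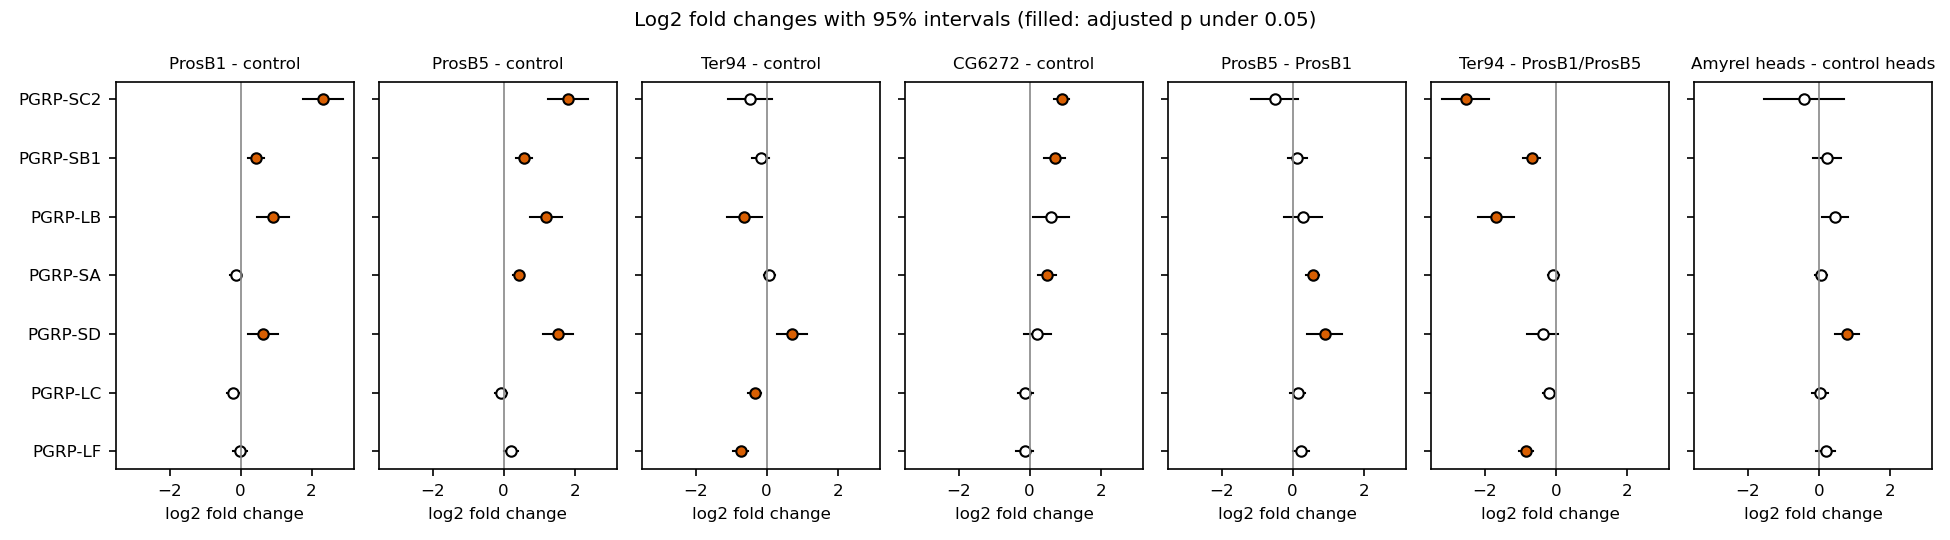
Log2 fold changes (points) with 95% intervals (lines) of the 7 genes other than PGRP-SC1a, PGRP-SC1b and PGRP-SB2 in 7 comparisons, filled where the adjusted p was under 0.05. PGRP-SC2 lies at 2.33 and 1.82 in the proteasome knockdowns and PGRP-LF at -0.73 under Ter94 RNAi, while the interval of PGRP-LC spans 0 in the ProsB5 and CG6272 panels.

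Of the other PGRP genes, PGRP-LA, which neighbours PGRP-LC on the same strand, fell under Ter94 RNAi (log2 -0.32 ± 0.07, adjusted p = 0.00165). PGRP-LE, an intracellular and secreted recognition protein of the Imd pathway, rose there (0.30 ± 0.06, adjusted p = 0.00149). None of PGRP-LA, PGRP-LD and PGRP-LE was called under ProsB1, ProsB5 or CG6272 RNAi. PGRP-LA was higher in white than in GFP RNAi (0.39 ± 0.08, adjusted p = 0.00653), as PGRP-LC was, and PGRP-LD stayed at 0.0881 to 0.557 CPM in thoraces.

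The genes that act with or after the PGRPs were read from lists, whose counts stand against 21.3, 31, 58.1 and 22.8% of all genes called under ProsB1, ProsB5, Ter94 and CG6272 RNAi. Of 14 antimicrobial peptide genes tested, 8 rose under ProsB1 RNAi, 10 under ProsB5 RNAi and 5 under Ter94 RNAi, where 2 also fell, and 1 of 13 rose under CG6272 RNAi. The median log2 change of this list was 1.30, 1.39, 0.83 and 0.37, and 5 of its 14 genes were already higher in white than in GFP RNAi. The diptericin gene Dpt, a target of Imd signalling, rose under ProsB1 RNAi from 5.02 ± 2.88 (n = 6) to 22.8 ± 5.57 CPM (n = 3, log2 2.35 ± 0.25, adjusted p = 3.52e-05 in edgeR's test). The control lines did not overlap, with Dpt at 2.30 to 2.99 CPM under GFP RNAi and 5.74 to 9.77 CPM under white RNAi. It rose also under ProsB5 RNAi (2.12 ± 0.25, adjusted p = 6.44e-05) and Ter94 RNAi (2.17 ± 0.25, adjusted p = 1.2e-05), and under CG6272 RNAi it stood at 4.76 to 6.30 CPM. The antimicrobial peptide gene called under CG6272 RNAi, in which the PGRP-SC genes rose too, was the attacin gene AttC (0.76 ± 0.14, adjusted p = 0.00821).

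Among 8 negative regulators of Imd other than PGRPs, pirk, which encodes a protein that binds PGRP-LC and removes it from the cell surface, was the 1 called under ProsB1 RNAi. Under ProsB5, Ter94 and CG6272 RNAi 2, 3 and 0 of the 8 rose and 1, 2 and 1 fell. It stood at 20.5, 24.9 and 8.54 CPM under GFP RNAi and at 20.3, 19.3 and 18.1 CPM under white RNAi. It stood at 66, 65.7 and 73.4 CPM under ProsB1 RNAi, at 62.6, 52.6 and 67.6 CPM under ProsB5 RNAi and at 44.0, 37.2 and 36.9 CPM under Ter94 RNAi. These 9 libraries lay above all controls, whereas CG6272 RNAi, at 17.3, 14.4 and 23.1 CPM, overlapped them. On the log2 scale the rises were 1.87 ± 0.22 (adjusted p = 6.38e-05), 1.71 ± 0.22 (0.000103) and 1.07 ± 0.22 (0.00114).

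Of 12 genes of the Imd pathway itself none was called under ProsB1 RNAi (edgeR), 4 rose under ProsB5 RNAi, 3 rose and 1 fell under Ter94 RNAi and 2 rose and 1 fell under CG6272 RNAi. The share called was near the background of 31% under ProsB5 RNAi and below that of 58.1% under Ter94 RNAi. The NF-kappaB gene Rel rose under ProsB5 RNAi (log2 0.32 ± 0.10, adjusted p = 0.0234), and Dredd, the caspase of the pathway, rose under Ter94 RNAi (0.40 ± 0.05, adjusted p = 2.1e-05). Of 15 Toll pathway genes, 2 rose and 2 fell under ProsB1 RNAi, and 5 rose and 1 fell under ProsB5 RNAi. Under CG6272 RNAi 2 rose and none fell, and under Ter94 RNAi 1 rose and 10 fell. Between the control lines, 5 of the 15 were already higher in white than in GFP RNAi. The falls under Ter94 RNAi included GNBP1, the partner of PGRP-SA (-0.33 ± 0.04, adjusted p = 1.02e-05), and the proteases psh (-0.55 ± 0.05, adjusted p = 1.27e-06) and SPE (-0.53 ± 0.07, adjusted p = 3.12e-05).

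In heads, 7 of the 10 genes could be tested, since PGRP-SC1a, PGRP-SC1b and PGRP-SB2 had at most 3 reads in any head library. Under muscle Amyrel overexpression PGRP-SD rose and no other gene of the 7 was called, where 1.51% of all genes were called, 0.791% as higher and 0.716% as lower. PGRP-SD stood at 14.8, 18.1 and 11.99 CPM in control heads and at 24.96, 27.7 and 25.3 CPM in Amyrel heads, with no overlap (log2 0.80 ± 0.14, adjusted p = 0.0459). The call was close to the threshold and was lost without control replicate 1 (0.108) or 3 (0.066) and without Amyrel replicate 1 (0.0661), 2 (0.166) or 3 (0.102). PGRP-LB stood at 9.72, 9.81 and 9.34 CPM in control heads and at 16.1, 13.04 and 10.2 CPM in Amyrel heads. It did not overlap either, so that 2 of the 7 genes did not, against 19.9% of all genes, but was not called (0.45 ± 0.16, adjusted p = 0.249).

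PGRP-SC2 was low in all heads, at 0.875, 2.76 and 0.744 CPM in controls and at 1.199, 1.22 and 0.910 CPM under Amyrel. Control replicate 2, the highest, also held Dpt at 93.6 CPM, against 2.61 and 3.73 CPM in the other controls and 5.73 to 9.004 CPM in Amyrel heads. The PGRP-SC2 difference was -0.41 ± 0.49 (adjusted p = 0.764) with that library and 0.45 without it (adjusted p = 0.687). Of the antimicrobial peptide genes Def (2.07 ± 0.20, adjusted p = 0.00471) and Drs (1.55 ± 0.20, adjusted p = 0.0169) rose in Amyrel heads, and of the Toll pathway genes grass did (0.44 ± 0.08, adjusted p = 0.0469). Haemocyte markers summed to 566 to 630 CPM in control heads and 587 to 637 CPM in Amyrel heads, and none of the 8 was called by edgeR.

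Control heads were also set against control thoraces, where body part, transgene and set of libraries change together and cannot be told apart, and where 80.1% of all genes were called, 40.1% as higher and 40% as lower in heads. Of the 7 genes 1 was higher and 3 were lower, and 3 did not overlap, against 72% of all genes. PGRP-SC2 was lower in heads (log2 -3.58 ± 0.38, adjusted p = 1.6e-05), as was PGRP-LB (-1.28 ± 0.23, adjusted p = 0.000669), and PGRP-SA was higher (0.44 ± 0.06, adjusted p = 8.78e-05). PGRP-LC was lower by a small margin (-0.28 ± 0.10, adjusted p = 0.03). That call was lost against GFP RNAi alone (0.716) and without GFP RNAi replicate 2 (0.0508), white RNAi replicate 2 (0.0603) or 3 (0.0802), control head replicate 2 (0.0843) or 3 (0.146), or the libraries high in Acp36DE (0.126). PGRP-SD (-0.07 ± 0.18, 95% interval -0.48 to 0.35), PGRP-SB1 (0.20 ± 0.13) and PGRP-LF (-0.22 ± 0.10) were not called. PGRP-SB1 was called higher in heads without control head replicate 3 (adjusted p = 0.00424), and PGRP-LF was called lower without control head replicate 1 or without GFP RNAi replicate 3 (0.0364 each). The gut markers summed to 4.48 to 7.58 CPM in control heads, with 3 of 18 at 0, namely Jon65Aii, deltaTry and gammaTry.

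Levels of different genes were compared per kilobase of exon. In control thoraces PGRP-SB1 led with 103 ± 17.3 CPM per kb, followed by PGRP-LC (33.3 ± 6.35), PGRP-SC2 (24.5 ± 6.36), PGRP-SD (21.9 ± 4.81), PGRP-LF (19.5 ± 2.61), PGRP-LB (13.4 ± 4.51) and PGRP-SA (11.9 ± 0.934; mean ± SD, n = 6). Each neighbouring pair from PGRP-LC downward lay within 1 SD of each added together, and PGRP-SB1 lay apart from the rest. In control heads the order was PGRP-SB1 (117 ± 24.2 CPM per kb), PGRP-LC (27.2 ± 3.37), PGRP-SD (20.8 ± 4.24), PGRP-LF (16.8 ± 1.89), PGRP-SA (16.2 ± 0.462), PGRP-LB (5.42 ± 0.139) and PGRP-SC2 (1.95 ± 1.51; n = 3), and PGRP-SA, PGRP-LB and PGRP-SC2 lay apart from each other by more than their added SDs. Under ProsB1 RNAi PGRP-SC2 reached 120.3 ± 56.6 CPM per kb beside 138 ± 21.3 for PGRP-SB1, and PGRP-SC1a reached 23.5 ± 10.6 (n = 3).

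**Figure D4:**
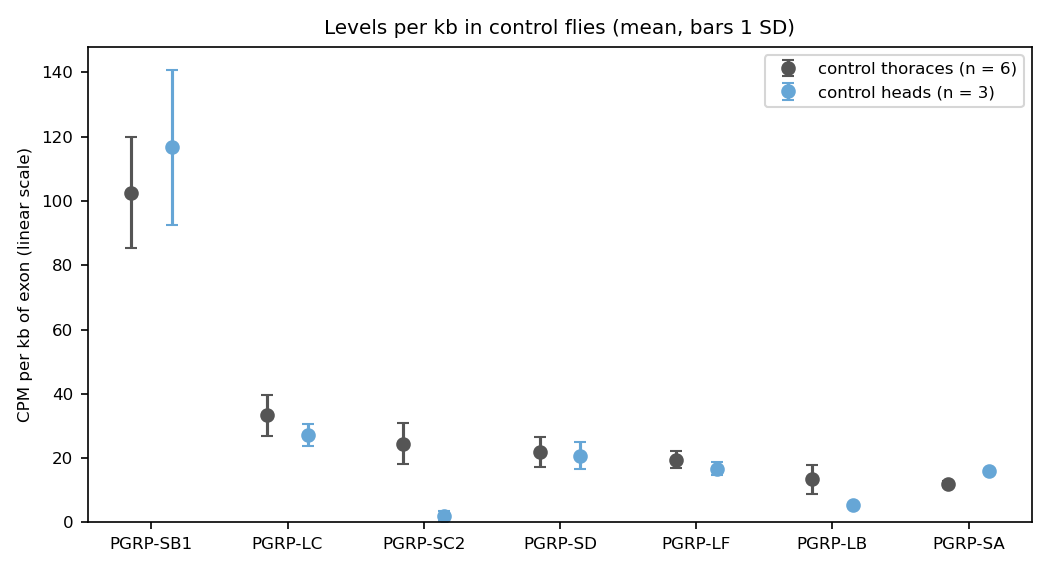
Mean CPM per kilobase of exon on a linear axis from 0 for 7 genes in control thoraces (n = 6) and control heads (n = 3), with bars of 1 SD. PGRP-SB1 lies above 100 in both body parts, and PGRP-SC2 drops from 24.5 in thoraces to 1.95 in heads.

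The genes most like each member were sought over the 15 thorax libraries of the GFP, white, ProsB1, ProsB5 and Ter94 RNAi groups, by Pearson correlation of log2 CPM among 8416 or 8417 genes. Since these libraries fall into 5 groups, the correlations mostly describe differences between groups. PGRP-SC1b was nearest to Jon65Ai (0.99), CG31198 (0.99) and fa2h (0.98), and PGRP-SC1a to CG31198 (0.98), Npc2f (0.98) and Pebp1 (0.98). PGRP-SC2 was nearest to Ser6, CG4562 and CG8834 (0.96 each), and PGRP-LB to CG43349, Myo31DF (0.96 each) and Mal-A8 (0.95). PGRP-SD was nearest to the serpin gene Spn88Eb (0.95), Glt and CG15117 (0.92 each), and PGRP-SA to CG12159, CG16704 (0.94 each) and the chitinase gene Cht3 (0.89). PGRP-SB1 was nearest to Est-Q (0.95), CG5009 and CG3902 (0.94 each), PGRP-LC to CG12001 (0.95), IP3K2 and CG18812 (0.94 each), and PGRP-LF to CG8303 (0.98), CG15394 and whd (0.97 each).

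In the current annotation (BDGP6) PGRP-LA, PGRP-LC and PGRP-LF follow each other on 1 strand of 3L. PGRP-SD overlaps CG32373 on its own strand and CG7492 on the other, PGRP-LB overlaps CG17230 and PGRP-LF overlaps UGP, each on the opposite strand. The strand setting of the deposited counts is not given in the sources used here, so reads of these overlaps may be shared or lost, and the values of PGRP-SD, PGRP-LB and PGRP-LF carry that uncertainty.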

How the data were processed

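Per the labels' protocols, libraries came from a stranded mRNA kit and were read on an Illumina HiSeq machine. The authors deposited raw read counts per gene, 1 file per library, with no normalization, aligned with STAR to BDGP5, per the submitters' processing notes. For the counting tool and its strand setting, the sources used here give nothing. The 5 closing summary rows, which name no gene, took 19.4 to 31.2% of thorax reads and 22.7 to 25.4% of head reads, and were left out.

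The tests used edgeR 4.0.16 under R 4.3.3. A gene entered a fit if it passed filterByExpr (count 10, total 15), scaling was by TMM, and 1 mean per group was fitted by quasi-likelihood, with two-sided F tests adjusted over all genes tested. The GFP, white, ProsB1, ProsB5 and Ter94 RNAi libraries (15) shared 1 fit. CG6272 RNAi, whose sample titles have another form, was fitted with the 6 controls, so that a library set and the knockdown cannot be told apart. Heads were fitted apart (6 libraries), and heads against thoraces with 9. CPM levels use TMM scaling over all 24 libraries. The SE of a log2 fold change is its size over the root of F. Lengths are exon unions in the BDGP6 annotation. PGRP-SC1b, whose union of 1649 bases is far longer than the 588 of PGRP-SC1a, is given no level per kb. Ratios of reads are taken over TMM-scaled library sizes and have exact binomial intervals on reads pooled over the libraries of each group. The procedure was run on simulated counts with known fold changes. That run does not cover genes near 0 in the controls, such as PGRP-SC1a and PGRP-SC1b. No main test paired libraries, and replicate number was a block only among the alternatives. Pairing was checked by whether each correlation of residuals between libraries of the same replicate number passed 0.1. This held for ProsB5 with ProsB1 RNAi (0.147 to 0.463) and for heads (0.155 to 0.239). It held for GFP RNAi with the proteasome knockdowns but not for white RNAi, nor for any pair with Ter94 or CG6272 RNAi.

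Alternatives were DESeq2 1.42.0, relative log expression scaling, 2 other filters, a fold threshold, replicate number as a block, single controls, leaving out libraries, all thoraces in 1 fit for CG6272 and summed PGRP-SC1 genes. The members and lists were chosen with earlier results of these data known. All members are named, with up to 4 called genes of each list by adjusted p as candidates for naming, and the 3 nearest genes per member among genes with at least 5 CPM. The markers named singly (Jon65Ai, Jon65Aiii, mex1, Mhc, ninaE and Acp36DE) were picked from their lists with values known.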

Additional observations from a re-analysis of the deposited data

Results flagged for a closer look

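PGRP-LB was flagged because it was called higher in both proteasome knockdowns and lower under Ter94 RNAi, with the difference between them itself called. That call is part of the rule, so its p-value adds no support. In the same comparison 57.1% of all genes were called. The fall of PGRP-LB under Ter94 RNAi against the controls was not called in 10 of 20 alternatives (adjusted p up to 0.318). All ProsB5 RNAi libraries lay above all controls while the Ter94 RNAi mean lay below the control mean, and Ter94 RNAi stood at -1.68 on the log2 scale against the mean of the proteasome knockdowns (adjusted p = 6.11e-05 in edgeR's quasi-likelihood test). That difference stayed between -1.73 and -1.59 in its 18 alternatives, with adjusted p of at most 0.00065. Summed gut markers were 189 to 1765 CPM under Ter94 RNAi and 5457 to 10810 CPM in the proteasome knockdowns, and their part in the difference was not tested.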

How the results depend on the processing

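Of 1381 member values under the alternatives, 1267 kept direction and call, 74 lost the call, 22 gained it and 18 changed sign. Counts of members called in the main setting were 6, 7, 6 and 5 for ProsB1, ProsB5, Ter94 and CG6272 RNAi against controls. With log2 changes under 1 in size no longer counted there were 3, 5, 2 and 2, and 0 for white against GFP RNAi, 0 for ProsB5 against ProsB1 RNAi, 0 for Amyrel heads, 4 for Ter94 RNAi against the proteasome knockdowns and 2 for control heads against thoraces. Against GFP RNAi alone the count for Ter94 RNAi was 3. That for CG6272 RNAi was 3 without the ninaE-high controls and 3 without the libraries that held Acp36DE. Leaving out the latter gave 1 for ProsB5 against ProsB1 RNAi. It left white RNAi with replicate 3 alone, so no count is given there for white against GFP RNAi. DESeq2 called 2 for white against GFP RNAi. Against white RNAi alone ProsB1 RNAi had 3 higher and 1 lower. Leaving out 1 library gave 4 to 6 (ProsB1), 7 to 8 (ProsB5), 4 to 6 (Ter94), 5 to 6 (CG6272), 1 to 3 (white against GFP), 1 to 2 (ProsB5 against ProsB1), 6 to 6 (Ter94 against proteasome), 0 to 1 (Amyrel heads) and 3 to 5 (heads against thoraces).

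With replicate number as a block the counts were 6, 7, 6, 5, 1, 2, 6, 1 and 4 in the same order of comparisons, the same as without it. Values that changed sign were all uncalled in the main setting. Against GFP RNAi alone they were PGRP-LC at 0.015 (ProsB1), 0.15 (ProsB5) and 0.11 (CG6272), PGRP-LF at 0.095 (ProsB1), PGRP-SB1 at 0.027 (Ter94) and PGRP-SD at 0.088 (heads against thoraces). Leaving out 1 library gave -0.066 to 0.060 for PGRP-LF (ProsB1), -0.0003646 to 0.25 for PGRP-SB1 (ProsB5 against ProsB1), -0.71 to 0.45 for PGRP-SC2, -0.0003591 to 0.11 for PGRP-SA and -0.057 to 0.14 for PGRP-LC (Amyrel heads), and -0.22 to 0.074 for PGRP-SD (heads against thoraces). PGRP-LF (ProsB1) was 0.043 without the ninaE-high controls, PGRP-SB1 (ProsB5 against ProsB1) -0.0003627 without the libraries that held Acp36DE, and PGRP-SD (heads against thoraces) 0.028 with no filter. The cause was not tested. For PGRP-SC1a and PGRP-SC1b, white against GFP RNAi without GFP replicate 1 or the libraries that held Acp36DE left both groups at or under 3 reads, and no fold was formed. Depth limits PGRP-SB2 and, in heads and controls, the PGRP-SC1 genes.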
